A study of Mus musculus with 6 samples.

Results

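The Wnt response and hair placode genes are 10 genes that read out or shape the first steps of hair follicle formation. They comprised the nuclear effectors Lef1 and Tcf7, the Wnt feedback inhibitors Axin2 and Nkd1, the secreted antagonists Dkk4 and Sostdc1, the ectodysplasin ligand Eda with its receptor Edar, and the follicle transcription factors Lhx2 and Trps1. They were found by gene symbol in the deposited count table, and 10 of 10 were present among its 54532 genes. RNA-seq of epidermis from newborn mice gave 3 libraries whose label is Paxbp1 knockout and 3 whose label is wild type, and the study asked how losing Paxbp1 alters expression in this tissue. The labels give no strain, age in days, sex, allele, promoter or Cre driver, and do not say whether a library pooled several animals. All 6 samples shared dissection away from fat, overnight Dispase II treatment and peeling of the dermis.

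In canonical Wnt signalling, beta-catenin escapes degradation, enters the nucleus and activates transcription together with LEF/TCF proteins. Axin2 and Nkd1 are induced by this activity and dampen it. In developing skin, Wnt activity marks the hair placode, a local thickening of the epidermis. Ectodysplasin, a TNF family ligand, then acts through Edar and NF-kappaB to stabilise the placode, which sends Shh to the cells beneath it.

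Library totals ran from 16643839 to 17816327 counts in the libraries labelled knockout and from 16315317 to 17802056 in the wild type. The gene total of Paxbp1 was not called as changed, with 2370, 1127 and 1125 counts in the libraries labelled knockout against 2007, 1159 and 1467 in the wild type (edgeR adjusted p = 0.783). The labels do not say which exons were deleted, so this total does not check the genotype, and every direction below is that of the libraries labelled knockout. Knockout replicate 1 and wild type replicate 1 stood apart by detecting 24380 and 24236 genes, where the other 4 detected 22059 to 22556. Counts of 20 keratinocyte markers were read, and none of them was at 0 throughout a group, which alone does not establish epidermal identity. Their summed level was 5987 to 15024 CPM (counts scaled to library size, with TMM factors) in the libraries labelled knockout and 78711 to 117833 CPM in the wild type, and 17 of 20 were lower. Markers of other cell types moved with the groups, in a comparison where 28.7% of all genes tested were called higher and 25.1% lower. Fibroblast markers summed to 4904 to 12273 CPM against 836 to 903 CPM, with 15 of 16 tested higher, and Mfap5 was at 0 in every wild type library. Macrophage markers summed to 10896 to 20169 CPM against 210 to 239 CPM, with 14 of 15 higher. Neutrophil markers summed to 3552 to 8635 CPM against 2.44 to 3.22 CPM, with 9 of 9 tested higher, and Ly6g and Retnlg were at 0 in every wild type library. Their part in the results that follow was not tested, and in bulk tissue fewer cells of a type and less RNA per cell cannot be told apart.

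**Figure D1:**
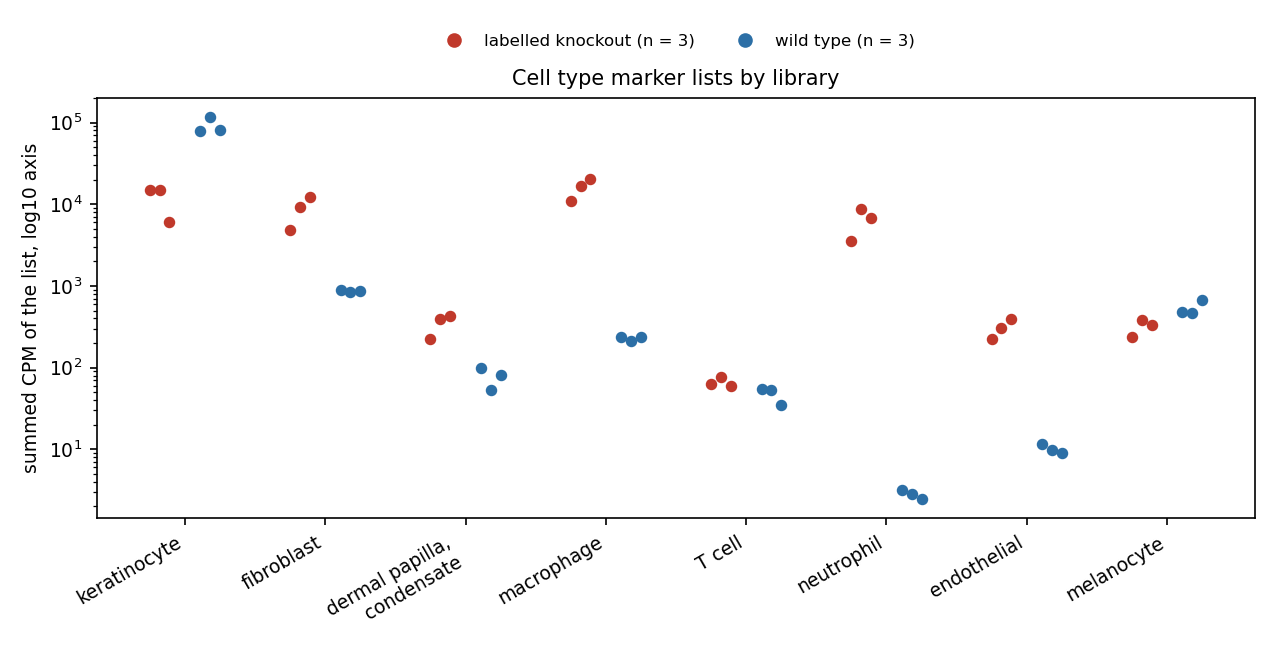
Summed CPM of 8 cell type marker lists in each library (log10 axis), with libraries labelled knockout in red to the left and wild type in blue to the right. The 3 knockout sums of keratinocyte markers lie below the 3 wild type sums, and those of fibroblast, macrophage, neutrophil and endothelial markers lie above them.

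Of the 10 genes, 9 were lower and 1 was higher in the libraries labelled knockout (edgeR quasi-likelihood test, adjusted p under 0.05 over the 16471 genes tested). Over all genes tested 25.1% were called lower and 28.7% higher, so calls were common in this comparison. The median log2 fold change was -3.78 over the 10 genes and -0.03 over all genes tested. Because the 10 genes were chosen with earlier results of these data known, these figures describe them and do not test them as a group. All 10 passed the filter on low counts, and Dkk4, Edar and Lhx2 did so through their wild type counts, each having fewer than 10 counts in at least 1 knockout library. The knockout and wild type libraries did not overlap for 10 of 10 genes (9 below, 1 above). Over all genes tested 30.4% lay wholly below and 31.9% wholly above. Dkk4, Edar and Lhx2 fell most, Trps1 was the single member that rose, and Tcf7 and Nkd1 fell least and changed direction when libraries were scaled to keratinocyte genes.

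**Figure D2:**
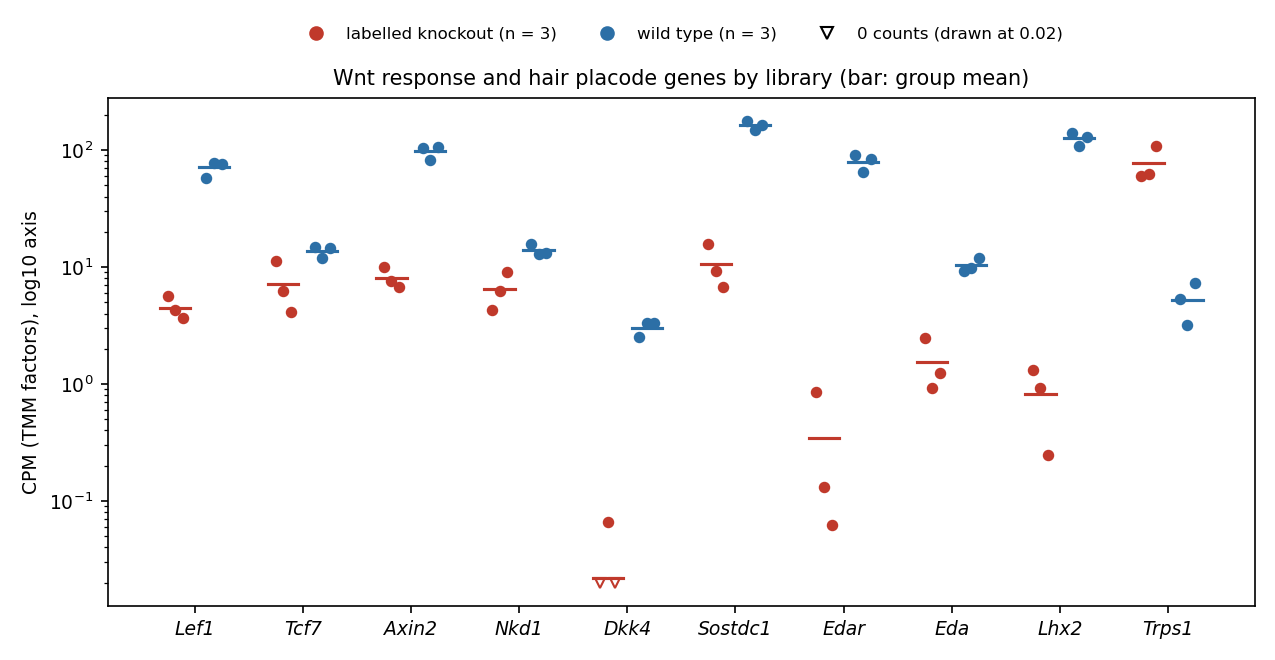
CPM of the 10 genes in each library on a log10 axis, with the libraries labelled knockout in red to the left of the wild type in blue, horizontal bars at group means and open triangles for libraries with no count. The knockout points lie below the wild type points for 9 genes and above them for Trps1.

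These genes can be seen beside the sequence of their promoters. RefSeq (GRCm38.p6, the assembly behind mm10) gave 12 start-site windows for 7 of the 10 genes, Lhx2, Lef1, Nkd1, Edar, Tcf7, Axin2 and Eda, each reaching from 250 bases before to 50 after a start site. Dkk4, Sostdc1 and Trps1 had no entry. Each window was searched on both strands for CTTTGA, the core that LEF/TCF proteins bind. It occurred in 2 of the 12 windows (16.7%), a share near the 16.0% of all 32851 windows. The core lay in the window of Edar, beginning 233 bases before the start site, and in that of an internal Lef1 start site, at 180 and 120 bases before it on the opposite strand. These 2 are shown with the Axin2 promoter, which belongs to the most widely used Wnt target and had no match in this window. The 250 bases before each start site are given 5′ to 3′ on the gene's strand, with the core or its reverse complement in capitals. The Edar stretch is chr10:58675697-58675946 (minus strand), the Lef1 stretch chr3:131156044-131156293 (plus strand) and the Axin2 stretch chr11:108920099-108920348 (plus strand).
Edar: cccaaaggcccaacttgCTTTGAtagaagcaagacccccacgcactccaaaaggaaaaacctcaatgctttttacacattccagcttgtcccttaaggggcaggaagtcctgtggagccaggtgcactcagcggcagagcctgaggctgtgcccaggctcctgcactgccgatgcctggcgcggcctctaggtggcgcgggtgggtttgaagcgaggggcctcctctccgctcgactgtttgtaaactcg
Lef1: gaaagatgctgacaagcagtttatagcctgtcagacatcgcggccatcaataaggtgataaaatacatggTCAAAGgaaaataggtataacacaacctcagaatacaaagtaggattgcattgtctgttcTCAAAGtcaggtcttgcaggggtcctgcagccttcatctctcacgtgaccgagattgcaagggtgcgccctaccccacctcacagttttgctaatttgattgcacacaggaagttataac
Axin2: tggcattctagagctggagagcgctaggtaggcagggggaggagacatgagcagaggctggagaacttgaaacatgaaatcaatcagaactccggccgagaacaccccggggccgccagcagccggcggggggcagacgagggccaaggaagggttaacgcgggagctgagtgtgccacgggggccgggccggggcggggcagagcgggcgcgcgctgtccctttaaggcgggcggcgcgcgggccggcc
The windows of Axin2, Lhx2, Eda and Tcf7 whose start site is the gene start of the count table were rich in G and C (70.0%, 74.7%, 74.3% and 76.3%, against a median of 52.7% over all windows). That of Edar had 58.7% and the internal Lef1 window, 45823 bases from the gene start, 43.7%. Lef1 also had windows for start sites 174 and 148 bases from its gene start, each with 67.3% and without the core.

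Lef1 (ENSMUSG00000027985, chromosome 3, 131110471 to 131224356, plus strand, mm10) encodes a DNA-binding partner of beta-catenin that is needed for hair follicles and whiskers in mice. Its level was 5.61, 4.25 and 3.65 CPM in knockout replicates 1 to 3, against 58.2, 78.2 and 76.5 CPM in wild type replicates 1 to 3. The 3 knockout libraries lay close together, at 7.90%, 5.98% and 5.15% of the wild type mean, far below the lowest wild type library. The log2 fold change was -3.97 ± 0.26 (SE, edgeR adjusted p = 5.70e-07), a 15.8-fold lower mean. Tcf7 (ENSMUSG00000000782, chromosome 11, 52252371 to 52283014, minus strand) encodes the related factor TCF1, best known from T cells. It had 11.2, 6.27 and 4.09 CPM in the libraries labelled knockout and 14.9, 12.0 and 14.4 CPM in the wild type. Knockout replicate 1 nearly reached the lowest wild type library, while replicate 3 stood at 29.7% of the wild type mean. The log2 fold change of Tcf7 was -0.94 ± 0.35 (edgeR adjusted p = 0.0408), and leaving out any 1 wild type library, or knockout replicate 2 or 3, ended this call (adjusted p 0.0516 to 0.121). The sum of 18 T cell markers was 60.4 to 77.2 CPM against 35.0 to 55.3 CPM, and none was at 0 throughout a group. Of these markers 5 were higher and 4 lower of 15 tested, near the 28.7% and 25.1% of all genes tested. Their part in the Tcf7 value was not tested.

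The other 2 LEF/TCF genes, chosen after their values were seen, were called differently. Tcf7l1, which mostly acts as a repressor in skin stem cells, had 6.05 ± 1.47 CPM in the libraries labelled knockout and 28.1 ± 6.96 CPM in the wild type (SD, n = 3 each). Its log2 fold change was -2.21 ± 0.28 (edgeR adjusted p = 6.20e-05), and 0.44 when scaled to Krt5 and Krt14 as described below (edgeR adjusted p = 0.519). Tcf7l2 had 29.1 ± 3.49 CPM and 28.2 ± 2.52 CPM (edgeR adjusted p = 0.865). Scaled to Krt5 and Krt14, Tcf7l2 was called higher (log2 fold change 2.49, edgeR adjusted p = 0.000298). Ctnnb1, which encodes beta-catenin itself, fell by 1.45 on the log2 scale (SE 0.27, edgeR adjusted p = 0.000850). Its log2 fold change was 1.13 when scaled to Krt5 and Krt14, without a call (edgeR adjusted p = 0.117).

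Axin2 (ENSMUSG00000000142, chromosome 11, 108920349 to 108950783, plus strand) encodes a scaffold of the complex that degrades beta-catenin. Its level was 9.97, 7.51 and 6.69 CPM in the libraries labelled knockout, against 105, 82.7 and 107 CPM in the wild type. The knockout libraries again clustered tightly, at 6.81% to 10.1% of the wild type mean. Axin2 had a log2 fold change of -3.61 ± 0.25 (edgeR adjusted p = 7.77e-07). Nkd1 (ENSMUSG00000031661, chromosome 8, 88521354 to 88594884, plus strand) encodes a Dishevelled-binding inhibitor of the same pathway. It had 4.30, 6.21 and 9.04 CPM in the libraries labelled knockout and 15.8, 13.0 and 13.2 CPM in the wild type. Unlike the other genes that fell with counts in all 3 knockout libraries, Nkd1 was lowest in knockout replicate 1 and highest in replicate 3, where it kept 64.6% of the wild type mean. The log2 fold change of Nkd1 was -1.10 ± 0.30 (edgeR adjusted p = 0.00985), and it was not called without both libraries numbered 1 (log2 fold change -0.79, adjusted p = 0.0590). An antisense gene that overlaps Axin2, Gm11670, had 3 counts in the libraries labelled knockout and 47 in the wild type, and reads of the pair cannot be told apart without a stated strand setting.

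Dkk4 (ENSMUSG00000031535, chromosome 8, 22624043 to 22627547, plus strand) encodes a secreted Wnt antagonist that is itself switched on in placodes. Its counts were 0, 1 and 0 in the libraries labelled knockout, against 46, 54 and 62 in the wild type. The gene was almost undetected in the libraries labelled knockout and low but even in the wild type, at 2.51 to 3.30 CPM. With 1 knockout count, the ratio of the group totals was 0.00673 with an exact 95% counting interval of 0.000169 to 0.0380, which covers counting error only (edgeR adjusted p = 3.88e-05). That count came from knockout replicate 2, and without this library Dkk4 was at 0 in the remaining libraries labelled knockout (adjusted p = 0.000125). Sostdc1 (ENSMUSG00000036169, chromosome 12, 36314139 to 36318452, plus strand), also called ectodin or Wise, encodes a secreted inhibitor of BMP and Wnt signals at the placode edge. It had 15.6, 9.28 and 6.75 CPM in the libraries labelled knockout and 178, 148 and 165 CPM in the wild type. Every knockout library was below 10% of the wild type mean, from 4.12% to 9.51%. Sostdc1 had a log2 fold change of -3.95 ± 0.32 (edgeR adjusted p = 2.32e-06).

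Eda (ENSMUSG00000059327, chromosome X, 99975606 to 100400762, plus strand) encodes ectodysplasin A, the ligand whose loss gives the Tabby mouse its missing hair follicles. It had 2.49, 0.915 and 1.24 CPM in the libraries labelled knockout, against 9.28, 9.72 and 12.0 CPM in the wild type. Knockout replicate 1 kept 24.1% of the wild type mean, replicate 2 kept 8.84% and replicate 3 kept 12.0%. Eda had a log2 fold change of -2.72 ± 0.40 (edgeR adjusted p = 0.000175), and -2.98 with sex, read from Xist and Y-linked counts, as a further term (adjusted p = 0.000181). Y-linked counts were present in knockout replicate 2 and in wild type replicates 1 and 2 only, so sex was not balanced between the groups. Without both libraries numbered 1 the log2 fold change of Eda was -3.34. Edar (ENSMUSG00000003227, chromosome 10, 58600789 to 58675654, minus strand) encodes the receptor, the downless gene of mice. Its counts were 15, 2 and 1 in the libraries labelled knockout, against 1647, 1060 and 1584 in the wild type. Of the 18 knockout counts 15 came from replicate 1, yet that library stood at 1.07% of the wild type mean. The log2 fold change of Edar was -7.75 ± 0.56 (edgeR adjusted p = 1.06e-06), below that of 99.8% of all genes tested. Without knockout replicate 1 it was -9.59, and without both libraries numbered 1 it was -9.51.

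For receptor and ligand the 95% intervals of the log2 fold change did not overlap, at -8.98 to -6.52 for Edar and -3.60 to -1.85 for Eda. The adaptor gene Edaradd, which joins the receptor to the signalling cascade, fell to 3.30 ± 2.55 CPM in the libraries labelled knockout, against 48.8 ± 6.58 CPM in the wild type (SD, n = 3 each, edgeR adjusted p = 4.21e-05). Scaled to the keratinocyte markers, Edaradd was not called (log2 fold change -1.07, adjusted p = 0.101).

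Lhx2 (ENSMUSG00000000247, chromosome 2, 38339281 to 38369733, plus strand) encodes a LIM homeodomain factor of placode and follicle stem cells. Its counts were 23, 14 and 4 in the libraries labelled knockout, against 2550, 1779 and 2450 in the wild type. No knockout library exceeded 1.03% of the wild type mean, and replicate 3 was at 0.197%. Lhx2 had a log2 fold change of -7.24 ± 0.43 (edgeR adjusted p = 3.72e-07). The antisense genes Gm13584 and Gm27197 overlap Lhx2 and had 75 and 45 wild type counts and none in the libraries labelled knockout. Trps1 (ENSMUSG00000038679, chromosome 15, 50654752 to 50890463, minus strand) encodes a GATA-type repressor that is mutated in a human syndrome of sparse hair and that is found in both the epithelium and the mesenchyme of follicles. It rose to 60.0, 63.0 and 109 CPM in the libraries labelled knockout, against 5.29, 3.18 and 7.27 CPM in the wild type. The lowest knockout library was above the highest wild type library, and replicate 3 stood above the other 2 in both groups. Trps1 had a log2 fold change of 3.87 ± 0.36 (edgeR adjusted p = 6.63e-06), a 14.7-fold higher mean.

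Markers of mesenchyme moved in the same direction as Trps1. Beside the fibroblast sums given above, 17 markers of dermal papilla and dermal condensate summed to 227 to 426 CPM in the libraries labelled knockout and 53.7 to 99.2 CPM in the wild type, with 6 higher and 2 lower of 12 tested. Trpm3, of that list, was at 0 in every wild type library. Knockout replicate 3, highest for Trps1, also had the highest fibroblast, dermal papilla and macrophage sums and the lowest keratinocyte sum (5987 CPM). The part of these cells in the Trps1 value was not tested.

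Most of the genes that fell, but not Nkd1 and Dkk4, shared a further feature. How common this feature is among all genes called lower was not counted. Knockout replicate 1 was the highest knockout library for Lef1, Tcf7, Axin2, Sostdc1, Edar, Eda and Lhx2, and replicate 3 the lowest for all of these but Eda. The keratinocyte marker sum had the same order, at 15024, 14738 and 5987 CPM in knockout replicates 1 to 3. The fibroblast sum ran the other way, at 4904, 9214 and 12273 CPM. Whether these sums have a part in the spread between knockout libraries was not tested. In the wild type every member varied little, with coefficients of variation from 9.44% for Sostdc1 to 16.5% for Edar, except Trps1 at 39.0%.

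The falls differed in how they compared with that of summed keratinocyte counts. When libraries were scaled to the summed counts of Krt5 and Krt14, keratins of the basal layer and a scaling added after seeing the data, the median over all genes moved to a log2 fold change of 2.48, against -0.03 with TMM factors, and the share of calls that were higher to 97.1%, against 53.3%. Relative to these keratins Edar, Lhx2 and Dkk4 remained lower (log2 fold changes -5.67, -5.12 and -4.86), as did Sostdc1 (-1.64) and Lef1 (-1.55), with adjusted p from 1.82e-11 to 0.0199. Axin2 (-1.18, adjusted p = 0.0711) and Eda (-0.33, adjusted p = 0.671) were not called. Nkd1 turned to a rise (1.59, adjusted p = 0.0207), and Tcf7 turned in direction without a call (1.34, adjusted p = 0.0531). Scaling to all 20 keratinocyte markers left Edar (-5.03), Lhx2 (-4.45) and Dkk4 (-4.20) lower, and Tcf7 (1.97) and Nkd1 (2.20) joined Trps1 (7.16) as higher, while Eda was at 0.29 (adjusted p = 0.695). This scaling also ended the calls of Lef1 (-0.90, adjusted p = 0.151), Sostdc1 (-0.999, adjusted p = 0.103) and Axin2 (-0.56, adjusted p = 0.356). The direction and call of Edar, Lhx2, Dkk4 and Trps1 held under all 6 scalings tried. Lef1, Sostdc1 and Axin2 kept their direction but not their call, and the directions of Tcf7, Nkd1 and Eda did not hold.

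**Figure D3:**
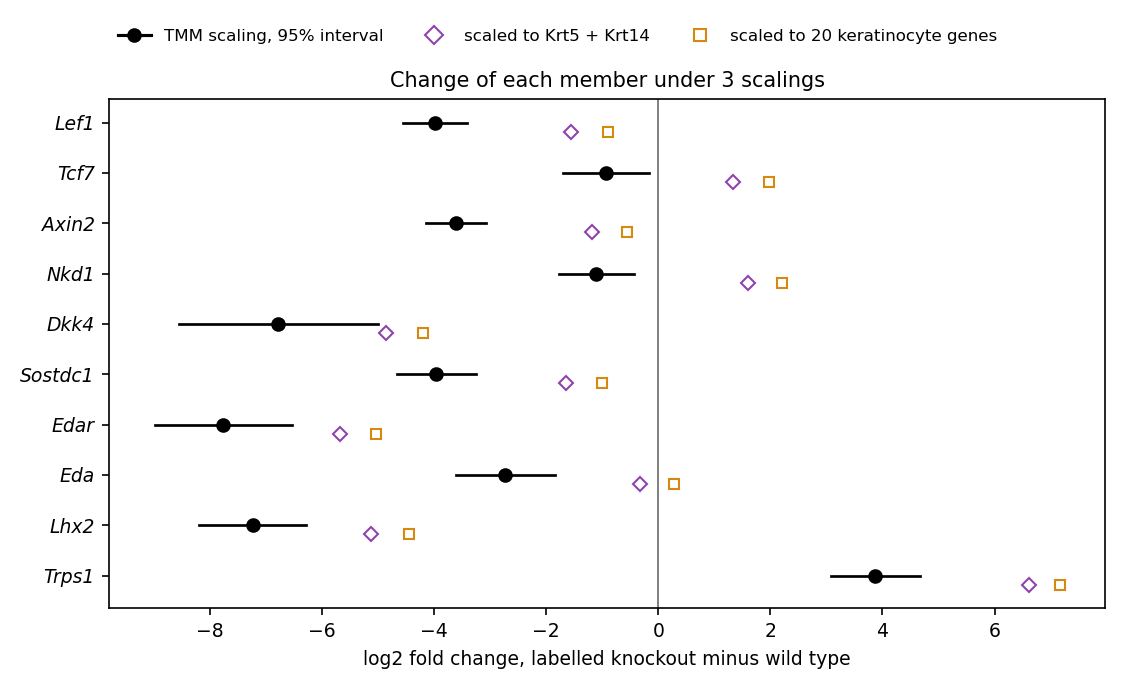
Log2 fold change (labelled knockout minus wild type) of each gene with TMM scaling and its 95% interval in black, and with libraries scaled to Krt5 and Krt14 (purple diamonds) or to 20 keratinocyte markers (orange squares). Edar, Lhx2, Dkk4, Lef1, Sostdc1 and Axin2 stay left of 0 and Trps1 right of 0 under each. Tcf7 and Nkd1 change sides under both keratinocyte scalings and Eda under one.

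Levels of different genes were compared per gene length, in the deposited FPKM. The wild type order was led by Sostdc1 at 89.6 ± 7.17 FPKM (SD, n = 3), followed by Lhx2 at 27.9 ± 3.10, Edar at 21.3 ± 3.26, Axin2 at 17.4 ± 2.24 and Lef1 at 7.89 ± 1.35 FPKM. Tcf7, Nkd1, Dkk4 and Eda lay between 5.11 and 1.48 FPKM, and Trps1 was last at 0.382 ± 0.149 FPKM. Edar and Axin2 overlapped between libraries, and no other neighbours in this order did. In the libraries labelled knockout Sostdc1 was still first at 5.87 ± 2.50 FPKM, but Trps1 came next at 5.75 ± 2.09 and overlapped it. Lhx2 and Edar, among the 3 highest in the wild type, were at 0.185 ± 0.120 and 0.0946 ± 0.119 FPKM, and of the members only Dkk4 was lower (0.0164 ± 0.0284 FPKM).

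**Figure D4:**
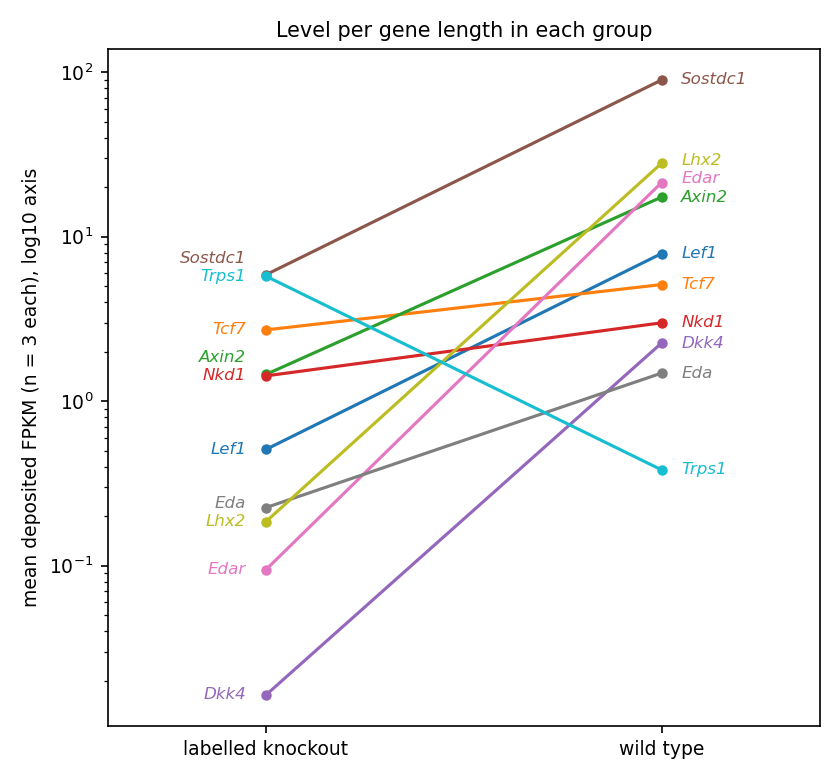
Mean deposited FPKM of each gene on a log10 axis in the libraries labelled knockout (left) and the wild type (right), with a line joining the 2 means of a gene. Lhx2 and Edar go with the steepest lines, and Trps1 is last in the wild type but level with Sostdc1 in the libraries labelled knockout.

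Other Wnt targets moved both ways. Of 17 targets tested 10 were lower and 5 higher, with a median log2 fold change of -2.52. Among all genes tested 25.1% were lower and 28.7% higher. This list and those below were chosen with earlier results of these data known, so their counts are descriptive. Tnfrsf19, the receptor gene Troy of follicle stem cells, fell to 6.20 ± 3.32 CPM in the libraries labelled knockout, against 257 ± 26.5 CPM in the wild type (SD, n = 3 each, edgeR adjusted p = 9.25e-07). Apcdd1, a membrane inhibitor of Wnt signals, fell to 17.6 ± 6.16 CPM, against 246 ± 35.6 CPM in the wild type (adjusted p = 1.98e-06), but was not called when scaled to Krt5 and Krt14 (log2 fold change -1.10, adjusted p = 0.103) or to the keratinocyte markers (-0.50, adjusted p = 0.419). In the other direction Wisp1, a matricellular Wnt target of fibroblasts, had 1467 counts in the libraries labelled knockout and 5 in the wild type (adjusted p = 8.11e-07). Ascl2 rose to 20.3 ± 3.81 CPM, against 3.92 ± 0.293 CPM (adjusted p = 2.05e-05). With Krt5 and Krt14 scaling the counts of this list were 4 lower and 7 higher, and with the 20 keratinocyte markers 2 and 8.

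Receptors and transducers of the Wnt pathway were mostly lower or not called. Of 34 tested 17 were lower, 1 was higher and 16 were not called, with a median of -0.72, beside 25.1% lower and 28.7% higher over all genes tested. With Krt5 and Krt14 scaling 20 were higher and 2 lower. The frizzled receptor gene Fzd10 fell to 2.79 ± 0.924 CPM in the libraries labelled knockout, against 193 ± 34.5 CPM in the wild type (edgeR adjusted p = 2.10e-07), under every scaling. Fzd3 fell to 5.73 ± 0.986 CPM, against 34.2 ± 6.63 CPM (adjusted p = 1.08e-05), and its log2 fold change was -0.16 when scaled to Krt5 and Krt14 (adjusted p = 0.820) and 0.45 when scaled to the keratinocyte markers (adjusted p = 0.481). The co-repressor gene Tle4 was the single rise (42.4 ± 5.12 CPM against 26.9 ± 2.81 CPM, adjusted p = 0.0181), and no gene of the list was higher with upper-quartile or library-size scaling, without wild type replicate 1 or 2, or without both libraries numbered 1. With the replicate number as a block 3 were higher.

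The list of secreted antagonists also held genes of membrane receptors, Kremen1 and Kremen2. This list split evenly, with 4 lower and 4 higher of 9 tested and a median of -0.36. Calls over all genes tested were 25.1% lower and 28.7% higher. Dkkl1 (3.95 ± 2.07 CPM in the libraries labelled knockout against 143 ± 44.2 CPM in the wild type, edgeR adjusted p = 2.07e-06) and Kremen2, a Dickkopf co-receptor gene (7.94 ± 6.80 against 184 ± 19.9 CPM, adjusted p = 0.000121), fell. Sfrp1, a secreted frizzled-like decoy, rose to 22.3 ± 8.70 CPM, against 5.29 ± 0.828 CPM in the wild type (adjusted p = 0.000342). Dkk2 had 58 counts in the libraries labelled knockout and 2 in the wild type (ratio 31.6, exact 95% counting interval 8.37 to 267). Without knockout replicate 3 or wild type replicate 2, with library-size scaling, or with the sex term, 2 were higher, and without wild type replicate 3, 2 were lower. Scaling to Krt5 and Krt14 gave 2 lower and 6 higher, and to the keratinocyte markers 2 and 7.

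Most of the ectodysplasin and NF-kappaB list was higher, unlike Edar. Of 19 genes tested 12 were higher and 2 lower, with a median of 0.85, where 28.7% of all genes tested were higher and 25.1% lower. The 2 lower were Edaradd and Traf6, a ubiquitin ligase downstream of the receptor (65.2 ± 9.48 CPM in the libraries labelled knockout against 115 ± 17.8 CPM in the wild type, edgeR adjusted p = 0.00755). Traf6 was higher when scaled to Krt5 and Krt14 (log2 fold change 1.66) or the keratinocyte markers (2.32). The inhibitor gene Nfkbie rose to 51.2 ± 14.6 CPM, against 1.77 ± 0.276 CPM (adjusted p = 4.92e-07), and the subunit gene Relb to 71.4 ± 1.38 CPM, against 16.5 ± 1.52 CPM (adjusted p = 6.89e-06). Leukocytes also express these, and the macrophage sums in the same libraries were 10896 to 20169 CPM against 210 to 239 CPM, and the neutrophil sums 3552 to 8635 CPM against 2.44 to 3.22 CPM. Their part in these rises was not tested.

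Of 24 hair placode and early follicle genes tested 13 were lower and 3 higher, with a median of -2.07. For this list and the hair matrix list below, the shares over all genes tested were 25.1% lower and 28.7% higher. Shh, the placode signal, had 9 counts in the libraries labelled knockout and 4210 in the wild type (log2 fold change -8.69 ± 0.48, edgeR adjusted p = 2.44e-07). Bmp2 fell to 2.11 ± 0.596 CPM, against 79.6 ± 4.11 CPM (adjusted p = 2.05e-07). Sox11 rose to 19.2 ± 4.03 CPM, against 1.24 ± 0.566 CPM (adjusted p = 7.59e-06), and Runx1 to 106 ± 26.9 CPM, against 43.5 ± 10.4 CPM (adjusted p = 0.00155). With Krt5 and Krt14 scaling 9 were lower and 7 higher, and with the keratinocyte markers 8 and 10. Of 14 hair matrix and shaft genes tested 8 were lower and 1 higher, with a median of -2.40. Gata3 fell to 10.7 ± 5.07 CPM, against 152 ± 9.97 CPM (adjusted p = 8.16e-06), but was not called when scaled to the keratinocyte markers (log2 fold change -0.97, adjusted p = 0.113). Tchh, which encodes trichohyalin of the inner root sheath, fell to 16.1 ± 8.65 CPM, against 89.1 ± 43.1 CPM (adjusted p = 0.000565), and was at -0.15 when scaled to Krt5 and Krt14 (adjusted p = 0.829). The hair keratin gene Krt84 had 187 counts in the libraries labelled knockout and 5 in the wild type (adjusted p = 0.00105). Of the 187 counts 141 came from knockout replicate 1, with 27 and 19 in replicates 2 and 3. Without the filter, without wild type replicate 1, or without both libraries numbered 1, 2 were higher, and with the stricter filter 5 were lower. In this list 2 were lower and 6 higher with Krt5 and Krt14 scaling, and 1 and 6 with the keratinocyte markers, where Tchh had a log2 fold change of 0.51.

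**Figure D5:**
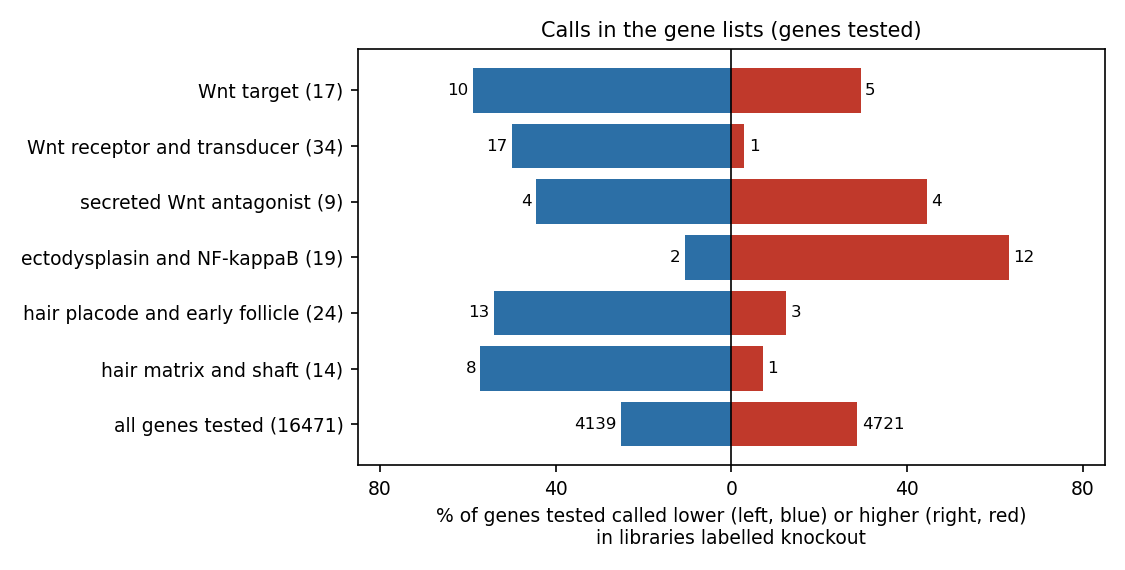
Share of the tested genes of 6 lists, and of all genes tested, called lower (blue, left) or higher (red, right) in the libraries labelled knockout, with the number called beside each bar and the number tested in brackets. The ectodysplasin and NF-kappaB list has 12 higher and 2 lower, the placode list 13 lower and 3 higher, and all genes 4139 lower and 4721 higher.

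Genes with a like pattern over the 6 libraries were sought among 11951 protein-coding genes, by the root mean square difference of centred log2(CPM + 1) values. Closest to Lhx2 was the homeobox gene Irx4 (difference 0.11), which had 1.24 ± 0.795 CPM in the libraries labelled knockout and 156 ± 12.7 CPM in the wild type (SD, n = 3 each). Closest to Edar was Fzd10 (difference 0.22). Irx2, a related homeobox gene, was closest to Sostdc1 (0.09), with 37.2 ± 13.4 CPM against 542 ± 57.0 CPM. Satb1, a chromatin organiser gene, was closest to Lef1 (0.12), and Hdac11, a histone deacetylase gene, to Axin2 (0.12). The Wnt co-receptor gene Ryk was closest to Dkk4 (0.08), where the added 1 CPM compresses the range of the low member. Ccdc85c was closest to Eda (0.09), Shroom2 to Tcf7 (0.10) and Arhgap42 to Nkd1 (0.11). For Trps1 it was Akna (0.08), an AT-hook gene of lymphoid cells, with 90.9 ± 35.6 CPM against 5.80 ± 1.71 CPM. The second genes were Fzd10 for Lhx2, Clca3a2 for Edar, Ptn for Sostdc1, Rasl11b for Lef1, Arhgef19 for Axin2, Ephx2 for Dkk4, Zfp64 for Eda, Nle1 for Tcf7, Zfp667 for Nkd1 and Ptprj for Trps1.

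The chromosomal neighbours showed no single direction. Within 100 kb, Lef1 lay beside Hadh, a fatty acid oxidation gene that was lower (log2 fold change -2.13, edgeR adjusted p = 3.07e-05, but 0.34 when scaled to Krt5 and Krt14), and Sgms2, a sphingomyelin synthase gene that was higher (3.13, adjusted p = 2.39e-06). Nkd1 lay beside Snx20 and Nod2, both higher (5.30, adjusted p = 8.15e-07, and 2.48, adjusted p = 0.000461). The neighbour of Edar that was tested, Ccdc138, was not called (-0.55, adjusted p = 0.158, and 1.79 when scaled to Krt5 and Krt14). Among neighbours not named, Axin2, Tcf7, Eda and Sostdc1 each had 1 called lower and none higher. Lhx2 had 1 higher and none lower, and Dkk4 had 2 lower and 1 higher. Calls over all genes tested were 25.1% lower and 28.7% higher. All neighbours were chosen for their distance to a member, and those named after their values were seen.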

How the data were processed

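The authors deposited whole-number read counts per gene and FPKM (per gene length and library size) for 6 libraries. Per the submitters' processing notes, HISAT2 2.0.5, featureCounts 1.5.0-p3 and mm10 were used. Strandedness, counting options and annotation version: not given in the sources used here. Each deposited FPKM value equals the count over gene length and a library constant of 0.891 to 1.17 times the count total.

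Counts were tested with edgeR 4.0.16 (R 4.3.3) using TMM factors, its expression filter (minimum count 10, total 15), robust quasi-likelihood tests, genotype as the only term and Benjamini-Hochberg adjustment over 16471 genes. These held at least 99.7% of each library's counts. CPM uses TMM factors. SEs were taken as the size of the log2 fold change divided by the root of the F statistic. Summed Y-linked counts were 0, 4900 and 0 in knockout replicates 1 to 3 and 5052, 4368 and 0 in wild type replicates 1 to 3. The libraries of a group therefore did not all come from the same animal. The labels do not say that each came from a separate animal, so p-values measure the spread between libraries, which may be technical in part.

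The members and lists were chosen with earlier results of these data known. Named genes were all members, per list the 2 called genes with the smallest adjusted p in each direction (at least 1 CPM in a group), and per member the 2 nearest patterns (at least 5 CPM); others were chosen after their values were seen. Wisp1 was listed also as Ccn4; Ccn4, Tiki1 and Krt85 matched no symbol. Alternatives were other scalings (keratinocyte markers; Krt5 with Krt14, added after seeing the data), filters, DESeq2 1.42.0, limma 3.58.1 (voom, and trend on log2(FPKM + 1) and log2(FPKM + 0.1)), no robust estimation, a sex term, a replicate block and libraries left out. Same-numbered libraries deviated together (r = 0.29, 0.45 and 0.21 across genes), against -0.43 to 0.10 for other pairs. The labels state no pairing, and with 3 libraries a group this check cannot settle whether the numbers pair the samples. The printed values come from the fit without the block, with the block among the alternatives. Libraries of a group differed beyond sampling noise (chi-square over degrees of freedom 29.8 to 80.5), and none was a duplicate. On simulated counts (knockout against wild type, 16027 genes) the share of altered genes found was 0% for 1.5-fold changes, 18.4% for 2-fold changes, 84.0% for 4-fold changes and 100% for 8-fold changes. That simulation altered 46 to 50 genes at each fold. In the deposited data 53.8% of genes tested were called, so these shares need not carry over.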

Additional observations from a re-analysis of the deposited data

How the results depend on the processing

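The direction of each of the 10 genes held under the 19 alternatives other than scaling to keratinocyte genes. Members called lower numbered 8 to 9, and higher 1, when each library was left out in turn; genes called lower ranged from 3388 to 4458 and higher from 4313 to 5017. Scaling to the 20 keratinocyte markers gave 3 members lower and 3 higher, with 238 genes lower and 14333 higher, and the median of all genes at 3.11; Tcf7 (1.97), Nkd1 (2.20) and Eda (0.29, adjusted p = 0.695) changed direction. Scaling to Krt5 and Krt14, added after seeing the data, gave 5 lower and 2 higher, with 389 genes lower and 12937 higher; Tcf7 (1.34) and Nkd1 (1.59) changed direction. Such scaling sets the fall of these keratins to 0 by construction. Upper-quartile and library-size scaling moved the median of all genes to -0.22 and -0.18. Beside the libraries left out, Tcf7 was not called with library-size scaling (adjusted p = 0.0540), the stricter filter (0.0563) or the sex term (0.0535). With the replicate block 9 members were lower and 1 higher, and no member changed its call. Tcf7 and Nkd1 changed by near 2-fold, and the simulation does not set what 3 libraries a group detect at that size here.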
